A study of Homo sapiens with 647 samples.

Results

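The nuclear oxidative phosphorylation genes are the genes of the cell nucleus that code for subunits of the respiratory chain and of ATP synthase. They were taken by symbol from the table of read counts: names of the NDUFA, NDUFB, NDUFC, NDUFS and NDUFV series, names beginning with UQCR, COX4 to COX8 or ATP5, and CYC1, CYCS, SDHA, SDHB, SDHC and SDHD. Of 180 matching symbols, 91 ending in P and a number or holding an antisense tag were dropped, which left 89 members among 54592 genes. By symbol, 38 belong to complex I, 4 to complex II, 10 to complex III, 17 to complex IV, 19 to ATP synthase, and 1 is cytochrome c. The rule used names only and no measured value, though the members were chosen with earlier results of these data known.

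The libraries were SMART-Seq2 RNA sequencing of T47D, an estrogen receptor positive luminal breast cancer line. Cells had been infected with pLX307 lentivirus carrying FGFR1, wild-type FGFR2, FGFR2 with the kinase-domain changes M538I, N550K or K660N, or the ligand gene FGF3, and were compared with a line carrying GFP and with parental cells. FGFR1 and the 4 FGFR2 lines are called the 5 receptor lines here, and GFP and parental cells the 2 control lines. Cells were plated for 48 h and treated for 24 h with fulvestrant (100 nM), which degrades the estrogen receptor, palbociclib (1 µM), an inhibitor of CDK4 and CDK6, FIIN-3 (100 nM), a covalent FGFR inhibitor, trametinib (500 nM), a MEK inhibitor, the ligand FGF2, or combinations, against DMSO. No source used here states the FGF2 dose.

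The sample titles number the libraries through 2 runs, treated as set 1 (64 groups of line and treatment) and set 2 (48 groups), with 4 to 6 libraries in a group and 647 in all. Set 1 held, on the receptor and control lines, FGF2, fulvestrant, fulvestrant plus FGF2 alone or with FIIN-3, trametinib or palbociclib, FIIN-3 plus FGF2, and DMSO, and on N550K also FIIN-3 without FGF2. Set 2 held palbociclib, palbociclib plus FGF2, palbociclib plus FGF2 plus FIIN-3, fulvestrant plus palbociclib plus FGF2 with either FIIN-3 or trametinib, and FIIN-3 alone, so its groups other than FIIN-3 alone and the FGF3 control share palbociclib. The FGF3 line had no FGF2 arm: it was given FIIN-3, fulvestrant, and fulvestrant with FIIN-3, trametinib or palbociclib in set 1, and FIIN-3, palbociclib and combinations of palbociclib in set 2, where its untreated group is labelled control. Total counts ran from 512961 to 13012180 per library in set 1 (median 7570052.5) and from 619509 to 4804935 in set 2 (median 2887186). The labels do not say that the libraries of a group came from separate cultures, so the p-values measure only the spread between these libraries, which may be technical.

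Oxidative phosphorylation runs electrons from NADH (through complex I) and from succinate (through complex II) by way of complex III and cytochrome c to oxygen at complex IV, and the proton gradient that results drives ATP synthase. Most subunits are nuclear genes translated in the cytosol and imported, and a small number come from mitochondrial DNA and are made by the mitochondrial ribosome, so the assembled complexes draw on both genomes. In cell lines the nuclear subunits are housekeeping genes with high transcript levels, and their promoters are known for binding sites of NRF1, of GABP and other ETS factors, of YY1, of CREB and of the estrogen-related receptors.

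At DMSO most of the genes had high transcript levels, and the members differed widely among themselves. The following levels are TPM, a scale of transcripts that corrects for gene length, taken from the authors' deposited log2 values for the 6 GFP libraries in set 1. Of those, 1 is among the libraries described below as apart, with low mitochondrial rRNA and a high level of many members. The GFP ranges and medians here include it. COX8A, a small nuclear subunit of complex IV, ran from 1576 to 4246 TPM with a median of 2126, and ATP5B, the catalytic beta subunit of ATP synthase, from 371.5 to 1608 with a median of 1246. These were the highest members by median in the GFP line. CYC1, the cytochrome c1 of complex III, had a median of 450 TPM, SDHB, the iron-sulfur subunit of complex II, 214.99 TPM, and SDHA, its flavoprotein, 209.5 TPM. CYCS, cytochrome c itself, was lower, at 64.98 to 98.2 TPM (median 78.5), and parental cells had a median of 72.9 TPM. NDUFS1, the largest iron-sulfur subunit of complex I, had a median of 16.7 TPM, NDUFA5 15.8 and NDUFA9 12.7, so genes whose products sit in 1 complex differed in transcript level. The alternative isoforms of other tissues were near the floor: COX4I2, COX6A2, COX6B2 and COX7A1 had a GFP median of 0 TPM and NDUFA4L2 of 0.259 TPM. COX7B2 was present at a median of 10.02 TPM.

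The label of the cells fits these libraries. Over the 12 GFP and parental DMSO libraries, KRT8 had a median of 4218 TPM, KRT18 7321, KRT19 17200 and GATA3 181.8, all luminal markers, ESR1 (the estrogen receptor) 14.4, and the blood and endothelial markers PTPRC, CD3E, PECAM1 and CDH5 had a median of 0 TPM. The other blood and endothelial markers listed, CD68 and VWF, had medians of 0.201 and 0.023 TPM. Of the fibroblast markers COL1A1 had a median of 4.409 TPM, DCN 0.066, and COL1A2 and PDGFRB 0. Several members are listed under a complex by symbol only. NDUFA4 is known as a complex IV subunit, COX7A2L as a factor of respiratory supercomplexes, and ATP5S and ATP5SL are named for ATP synthase without being subunits of the enzyme. Many members have processed pseudogenes, and UQCRHL is a near copy of UQCRH, so how reads were divided among copies is uncertain.

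Promoters of the members were searched for 6 short motifs in the RefSeq windows from 250 bases before to 50 after each gene start (GRCh38.p14; the counts were made on hg19, so only sequences and no counts are placed here). Of the 89 members, 69 had a window, 56 by symbol and 13 by an older symbol. On either strand, the NRF1 core (GCGC on each side of an A and a free base) was in 23.2% of the 69 members and 6.98% of 27305 genes, CCGGAAG (an ETS core) in 29% and 12.2%, AAGATGGC (YY1) in 17.4% and 3.52%, TGACGTCA (the CREB site) in 7.25% and 2.25%, AAGGTCA (an estrogen-related receptor half-site) in 14.5% and 4.8%, and CACGTG (an E-box) in 10.1% and 8.77%. None of these motifs is contained in another, and a match is a description and not a shown site. Windows of 4 members that the results below turn on are printed in the direction of transcription, with the matches in capitals. CYCS is shown as the member with the largest differences, SDHB and NDUFA9 as members lower with FIIN-3 in both sets like CYCS, and SDHD as a member higher with it.
CYCS promoter (chr7:25125211-25125510, minus strand; none of the 6 motifs in this window): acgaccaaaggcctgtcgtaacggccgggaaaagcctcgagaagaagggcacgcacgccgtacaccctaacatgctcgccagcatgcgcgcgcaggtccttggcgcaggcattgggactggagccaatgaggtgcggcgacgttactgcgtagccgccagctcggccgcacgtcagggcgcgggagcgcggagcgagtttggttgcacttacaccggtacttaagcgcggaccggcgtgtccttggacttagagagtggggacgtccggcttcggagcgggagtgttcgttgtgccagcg
SDHB promoter (chr1:17053983-17054282, minus strand; in order the receptor half-site, the ETS core, the CREB site and the YY1 site): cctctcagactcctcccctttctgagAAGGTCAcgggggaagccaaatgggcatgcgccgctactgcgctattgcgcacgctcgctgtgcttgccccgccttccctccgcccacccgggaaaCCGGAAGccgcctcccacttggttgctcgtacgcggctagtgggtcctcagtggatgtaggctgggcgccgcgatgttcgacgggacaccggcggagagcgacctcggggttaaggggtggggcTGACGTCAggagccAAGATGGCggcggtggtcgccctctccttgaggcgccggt
NDUFA9 promoter (chr12:4648864-4649163, plus strand; the NRF1 core on the other strand, then the YY1 site): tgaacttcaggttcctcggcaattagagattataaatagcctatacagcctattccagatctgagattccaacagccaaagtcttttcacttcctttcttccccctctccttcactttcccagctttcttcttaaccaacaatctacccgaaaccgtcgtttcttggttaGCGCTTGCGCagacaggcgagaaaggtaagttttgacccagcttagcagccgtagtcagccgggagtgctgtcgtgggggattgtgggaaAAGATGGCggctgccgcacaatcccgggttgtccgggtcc
SDHD promoter (chr11:112086623-112086922, plus strand; the NRF1 core on both strands, then the ETS core and the receptor half-site on the other strand): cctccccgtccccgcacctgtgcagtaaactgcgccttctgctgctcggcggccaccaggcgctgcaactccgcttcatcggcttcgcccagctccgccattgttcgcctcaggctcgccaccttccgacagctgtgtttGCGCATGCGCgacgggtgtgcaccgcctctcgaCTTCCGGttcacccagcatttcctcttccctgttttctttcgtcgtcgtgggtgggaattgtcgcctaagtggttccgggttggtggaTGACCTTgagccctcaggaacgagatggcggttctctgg

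Some libraries stood apart in a way that touched these genes directly. In 14 libraries of set 1 and 2 of set 2 the mitochondrial rRNA MT-RNR2 took under 5% of counts, and the mean level of the members (the mean over members of log2 CPM, counts scaled to the library total) ran from 8.28 to 9.54 in those of set 1 (median 9.25), against 6.78 to 8.21 in the rest of set 1 (median 7.32). The members took 3.23% to 8.16% of all counts there, against 1.40% to 3.29%. The rise was uneven: ATP5J, COX6A1 and UQCR10, which code for small proteins, were higher by a median of 3.28, 3.18 and 3.10 on the log2 scale, while SDHA differed by -1.16 and NDUFS1 by -1.07. Other lists differed too: the median list level there was 13.07 against 11.49 for the 13 protein-coding genes of mitochondrial DNA, 9.995 against 8.561 for the cytosolic ribosome, 7.66 against 6.18 for the mitochondrial ribosome and 5.967 against 4.882 for assembly factors, and it was 5.645 against 6.558 for glycolysis. All 14 stand in the third of the runs of 96 title numbers, and 8 of them are DMSO libraries (1 FGFR1, 2 wild-type FGFR2, 2 M538I, 2 N550K, 1 GFP). Set 1 treatments against DMSO in receptor lines are therefore given with and without them. Fulvestrant over DMSO in control lines and its interaction with line class are not given without them. Outside these libraries the median level also differed between the 4 ranges of 96 title numbers in set 1, at 7.50, 7.16, 7.54 and 7.22. Set 1 treatment comparisons in receptor lines are therefore also given without the libraries apart and with a term for that range. That fit was chosen after seeing the data. In set 1 most arms were not spread evenly over the ranges. The arms of FIIN-3 on fulvestrant plus FGF2 shared only ranges 1 and 4, with 10 libraries per arm in each. Those of FGF2, over DMSO or on fulvestrant, shared only ranges 1 and 2. Those of trametinib and of palbociclib shared only ranges 2 and 4. With the range term these differences rest mostly on the shared ranges and not on all libraries of an arm. In set 2 the ranges held the arms in nearly equal numbers, with median levels of 7.18, 7.07 and 7.15.

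**Figure D1:**
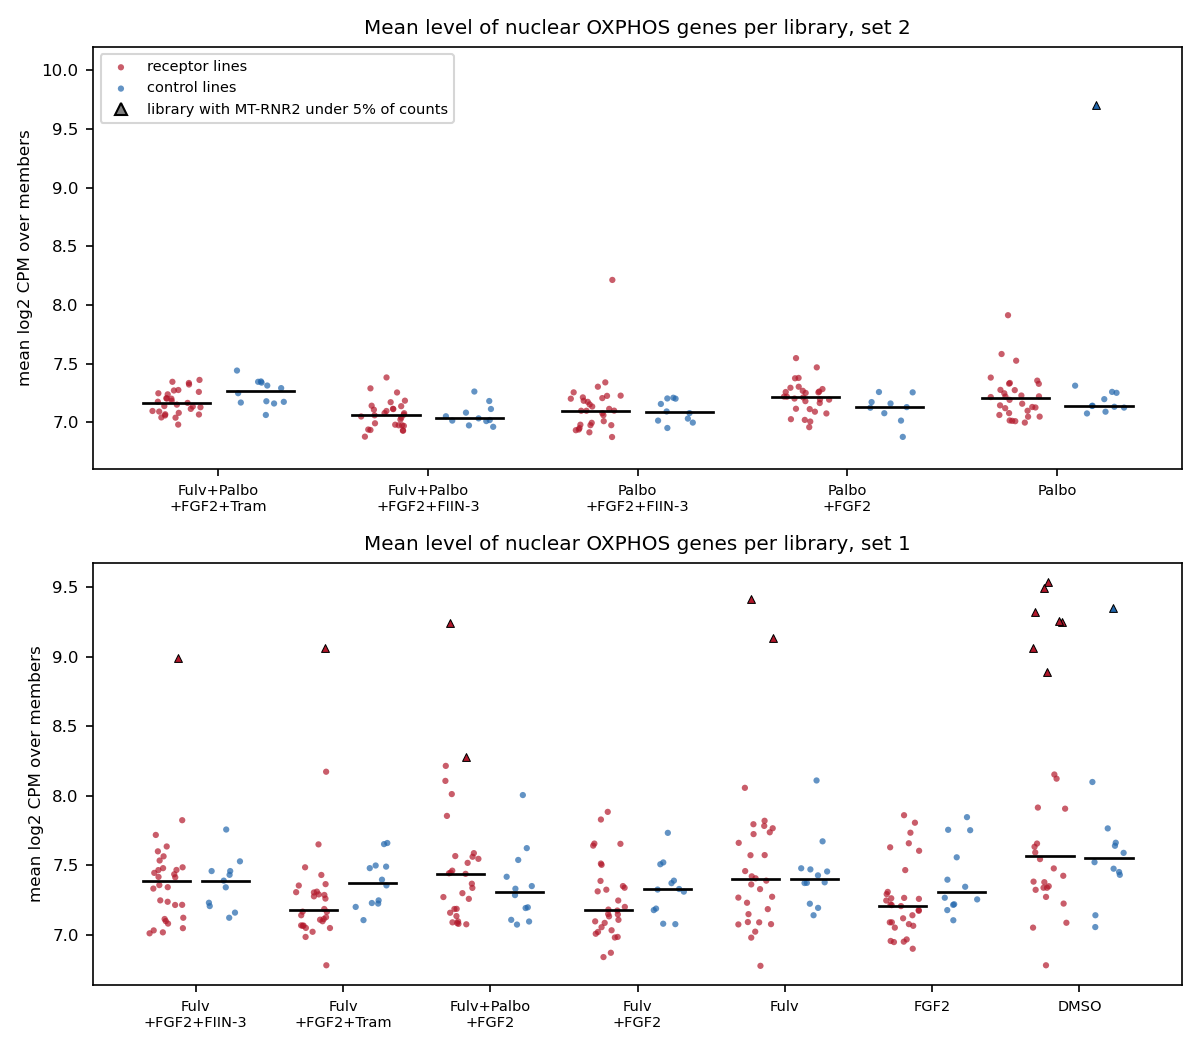
Mean level of the nuclear oxidative phosphorylation genes (mean over members of log2 CPM) in every receptor-line and control-line library of the treatments compared, with set 2 above and set 1 below. Receptor lines are red and control lines blue, bars are medians and triangles are libraries with MT-RNR2 under 5% of counts; group medians of set 2 lie between 7.03 and 7.27, and the triangles of set 1 reach 9.54.

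The contrast given first is that between the MEK inhibitor and the FGFR inhibitor. Trametinib was set against FIIN-3 in set 2, both on fulvestrant, palbociclib and FGF2. This asks whether the 2 inhibitors leave the same transcript state. In the receptor lines (29 trametinib and 28 FIIN-3 libraries), 36 of 80 members tested were higher under trametinib and 10 lower, where 29.2% and 30.8% of 10831 genes were called higher and lower (edgeR, adjusted p under 0.05 over all genes). In the control lines (12 and 11 libraries), 40 of 79 members were higher and 2 lower, where 19.9% and 20.3% of 10518 genes were called. The members' median log2 difference was 0.10 in receptor lines and 0.18 in control lines, beside -0.01 and -0.03 over all genes tested, so most changes were small. Of the members higher in control lines 31 were also higher in receptor lines, 77.5% of the 40 and 86.1% of the 36, beside 84.7% and 55.9% for all genes called higher; the libraries of the 2 line classes are different. Whether the line classes differ was not tested. Set 2 had no group of these lines on fulvestrant, palbociclib and FGF2 without either inhibitor. The contrast therefore cannot say which of the 2 inhibitors a difference comes from. All values are CPM within a set, relative to the library's total, and in bulk libraries fewer cells expressing a gene and less RNA per cell cannot be told apart.

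CYCS, the carrier between complex III and complex IV that is also released from mitochondria in apoptosis, differed most. In control lines CYCS ran over 160.1 to 282.3 CPM (median 220.8) under trametinib, against 73.5 to 146.2 CPM (median 120.8) under FIIN-3. The groups did not overlap, and the log2 difference was 0.93 ± 0.10 (adjusted p = 6.1e-10) by edgeR, where ± is 1 standard error here and below. In receptor lines CYCS ran over 112.4 to 252.1 CPM (median 192.7) under trametinib, against 79.5 to 147.7 CPM (median 112.4) under FIIN-3, a difference of 0.75 ± 0.06 (adjusted p = 4.11e-18) with overlapping groups. Every line had the same sign: the mean log2 difference was 0.48 in FGFR1, 0.76 in wild-type FGFR2, 0.87 in M538I, 0.71 in N550K, 0.94 in K660N, 0.74 in GFP and 1.1 in parental cells.

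Complex I, which oxidises NADH, had members called in both directions. In receptor lines 14 of 37 tested were higher and 8 lower (37.8% and 21.6%, beside the 29.2% and 30.8% of all genes), so those counts alone do not set complex I apart. NDUFS8, an iron-sulfur subunit on the path of electrons to ubiquinone, ran over 147.9 to 340.8 CPM (median 239.2) under trametinib, against 123.6 to 215.8 CPM (median 161.8) under FIIN-3. Its log2 difference was 0.55 ± 0.05 (adjusted p = 5.83e-16), and in control lines, where the groups did not overlap (192.8 to 326.96 CPM (median 242.9) against 119.3 to 188.8 CPM (median 170.7)), it was 0.55 ± 0.07 (adjusted p = 1.04e-07). The accessory subunits NDUFS6, NDUFS5 and NDUFB8 were higher in receptor lines by 0.50 ± 0.06, 0.40 ± 0.05 and 0.39 ± 0.05. NDUFV1, the flavin-binding subunit that takes electrons from NADH, went the other way. NDUFV1 ran over 170.8 to 259.1 CPM (median 216.1) under trametinib, against 192.4 to 316.4 CPM (median 276.1) under FIIN-3 in receptor lines, a difference of -0.34 ± 0.04 (adjusted p = 6.17e-11), and was lower in control lines, at -0.21 ± 0.07 (adjusted p = 0.0212). The accessory subunit NDUFA5 ran over 19.8 to 72.8 CPM (median 48.9) under trametinib, against 38.2 to 83.5 CPM (median 63.7) under FIIN-3, and was lower, at -0.41 ± 0.08 (adjusted p = 1.45e-05) with overlapping groups. NDUFS1 was not called in either class, at 0.07 (adjusted p = 0.207) in receptor and 0.12 (adjusted p = 0.142) in control lines.

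Of the 4 genes of complex II, 1 was higher and 1 lower in receptor lines. SDHB ran over 133.6 to 216.6 CPM (median 156.8) under trametinib, against 111.1 to 154.9 CPM (median 124.5) under FIIN-3 in receptor lines, and was higher by 0.33 ± 0.04 (adjusted p = 9.38e-10). In control lines SDHB was higher by 0.41 ± 0.07 (adjusted p = 7.71e-06), at 143.4 to 216.4 CPM (median 163.4) against 105.8 to 150.7 CPM (median 124.1), with overlapping groups. SDHD, a membrane anchor, was lower in receptor lines, at -0.28 ± 0.10 (adjusted p = 0.0132), and SDHA was not called, at -0.08 (adjusted p = 0.0674).

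In complex III 4 of 9 tested members were higher in each line class (44.4%, beside 29.2% of all genes in receptor and 19.9% in control lines) and none lower. UQCRFS1, the Rieske iron-sulfur protein, was higher by 0.27 ± 0.05 in receptor lines and 0.37 ± 0.07 in control lines. CYC1, the direct electron donor to cytochrome c, was not called, at -0.06 (adjusted p = 0.435) and -0.10 (adjusted p = 0.615), although CYCS changed most of all members. Of complex IV, 5 of 12 tested members (41.7%) were higher in receptor lines, among them COX7A2 at 0.37 ± 0.06, COX5A at 0.28 ± 0.05 and COX4I1 at 0.19 ± 0.04. COX5B was not called, at 0.02 (adjusted p = 0.788).

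Among the 5 complexes ATP synthase had the largest share of higher members, 13 of 17 tested in control lines and 11 of 17 in receptor lines (76.5% and 64.7%, beside 19.9% and 29.2% of all genes). ATP5E, the epsilon subunit of the central stalk, ran over 323.2 to 484.8 CPM (median 406.1) under trametinib, against 258.3 to 372.3 CPM (median 274.5) under FIIN-3 in control lines, and was higher by 0.49 ± 0.06 (adjusted p = 8.36e-08) with overlapping groups. The catalytic subunits ATP5A1 and ATP5B were higher by 0.19 ± 0.06 and 0.20 ± 0.06 in control lines and by 0.18 ± 0.04 and 0.15 ± 0.03 in receptor lines. The genes ATP5G1, ATP5G2 and ATP5G3 code for the same mature c subunit of the membrane ring. ATP5G3 was higher in receptor lines by 0.34 ± 0.04 (adjusted p = 1.4e-11), ATP5G1 was higher by 0.21 ± 0.05 (adjusted p = 0.000118), and ATP5G2 was lower, at -0.29 ± 0.04 (adjusted p = 3.87e-11). ATP5G2 ran over 338.2 to 503.6 CPM (median 414.4) under trametinib, against 438.5 to 626.99 CPM (median 501.4) under FIIN-3, and the groups overlapped. Reads shared among these 3 genes are uncertain.

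**Figure D2:**
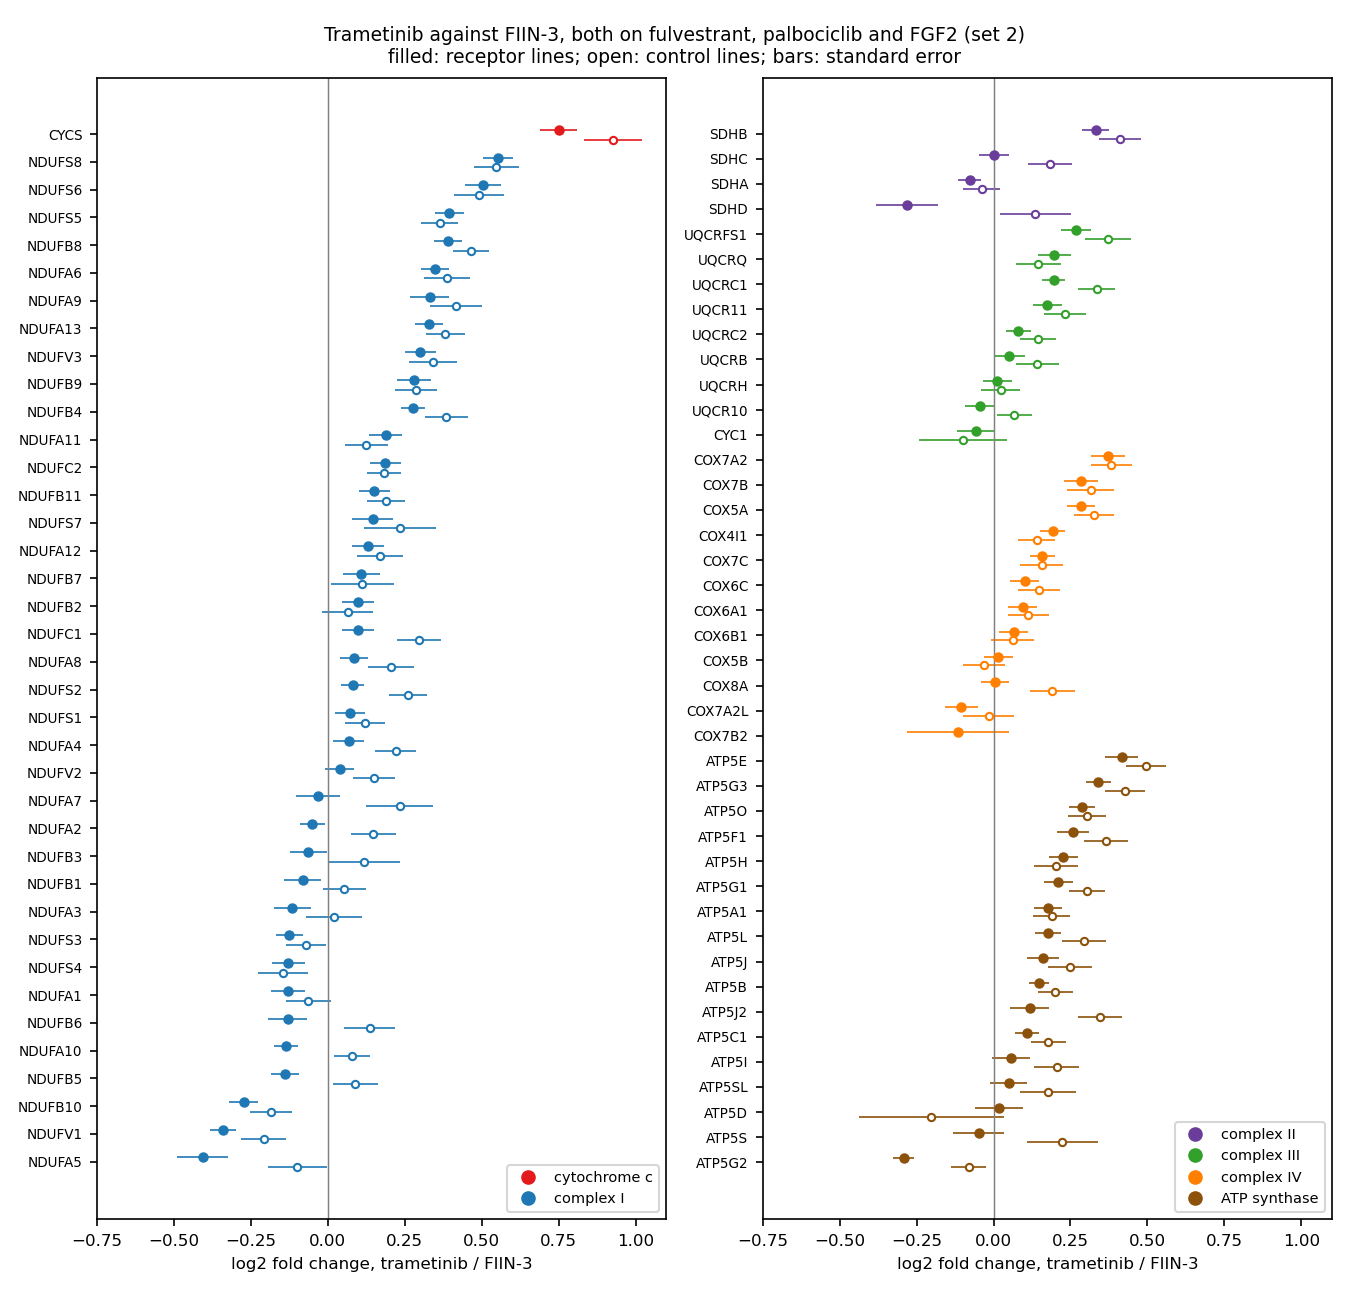
Log2 difference of trametinib over FIIN-3 (both on fulvestrant, palbociclib and FGF2) for each member, grouped by complex, with bars of 1 standard error; filled points are receptor lines and open points control lines. CYCS lies highest, at 0.75 and 0.93, and NDUFA5, NDUFV1 and ATP5G2 lie lowest in receptor lines, at -0.41, -0.34 and -0.29.

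The mitochondrial genome's own subunits differed in the direction opposite to the median of the nuclear ones in this contrast. Of the 13 mRNAs of mitochondrial DNA, which code for core subunits of complexes I, III, IV and ATP synthase, 12 were lower under trametinib in receptor lines (median log2 difference -0.51) and 11 in control lines (median -0.43), and none was higher. In receptor lines MT-ND6, MT-ND3 and MT-ND5 were lower, at -0.75, -0.68 and -0.66. Genes of the mitochondrial ribosome, which translates those mRNAs, were called higher for 46 of 77 and lower for 7 in receptor lines, and higher for 37 of 76 and lower for 1 in control lines. Of the genes of the cytosolic ribosome 32 of 81 were lower and 11 higher in receptor lines. Glycolysis genes were higher for 17 of 21 and lower for 4 in receptor lines (median 0.52), led by LDHA, which makes lactate from pyruvate, at 1.71 ± 0.06. Assembly factors were mixed, with 14 of 41 higher and 10 lower in receptor lines. Over all genes tested 29.2% were called higher and 30.8% lower in receptor lines, and 19.9% and 20.3% in control lines. The counts of the assembly factors lie near those shares. Of 11 tested regulators of mitochondrial biogenesis, the coactivator PPRC1 (0.39) and GABPB1 (0.33) were higher, and YY1 (-0.73), ESRRA (-0.52), POLRMT (-0.43) and 3 others were lower.

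**Figure D3:**
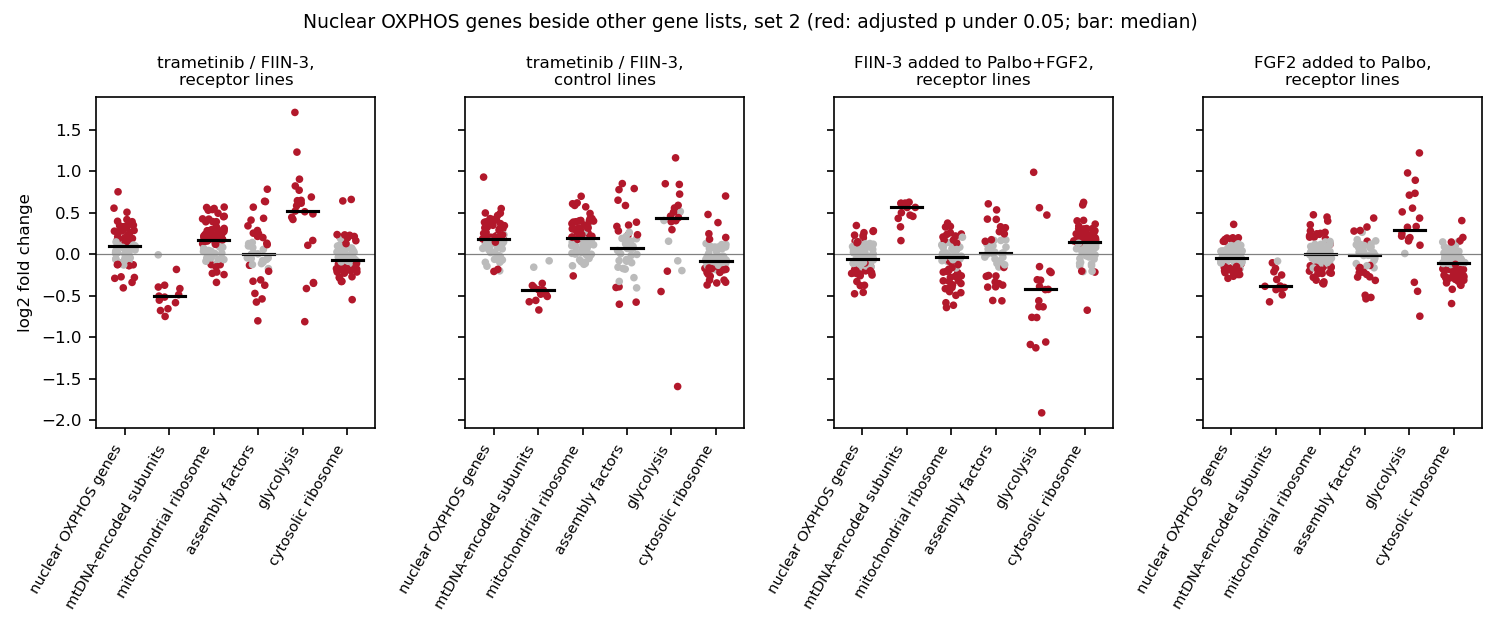
Log2 differences of single genes in 4 contrasts of set 2, for the nuclear oxidative phosphorylation genes beside mtDNA-encoded subunits, mitochondrial ribosome, assembly factors, glycolysis and cytosolic ribosome; red points are called genes and bars are list medians. Under trametinib over FIIN-3 in receptor lines the nuclear genes have a median of 0.10, the mtDNA-encoded subunits -0.51 and glycolysis 0.52.

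Adding FIIN-3 to palbociclib plus FGF2 asked which genes change with FIIN-3 once the cell cycle inhibitor is present. Whether a change goes through the introduced receptor was not tested. In receptor lines CYCS, NDUFS8, NDUFS1 and SDHB were lower with FIIN-3, and NDUFA5, NDUFV1, ATP5G2 and SDHA were higher, so subunits within a complex moved both ways. Over 29 receptor-line libraries with FIIN-3 and 28 with palbociclib plus FGF2, 21 of 80 members were lower and 10 higher, where 27.9% and 30.3% of 10851 genes were called lower and higher. The median was -0.05 beside 0.02 over all genes. The share lower is near the background, and the share higher, 10 of 80 beside 30.3% of all genes, is below it. Both counts moved with 2 libraries whose mean level of the members stood out from their own group. Those 2 were picked by the level of these same members: a high FGFR1 library with FIIN-3 and a low M538I library without it. Leaving them out therefore moves the members' difference down by construction, so the fit without them is not independent support. Without those (28 and 27 libraries) 40 members were lower and 8 higher, where 29.7% and 31.4% of genes were called, with a median of -0.13. In the control lines (10 and 9 libraries) 3 members were lower and 0 higher, where 4.86% and 4.95% of 10717 genes were called. The 3 were ATP5D at -0.31, CYC1 at -0.25 and ATP5G1 at -0.23. A total of 11 members had an unadjusted p under 0.05 there, and DESeq2 called 5 lower and 0 higher. Whether the line classes differ was not tested in set 2.

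CYCS again led. It ran over 89.5 to 384.8 CPM (median 137.7) with FIIN-3, against 96.2 to 289.6 CPM (median 208.3) without it in the receptor lines. The groups overlapped, and the FIIN-3 group included 1 high library, of the FGFR1 line. CYCS was lower, at -0.48 ± 0.08 (adjusted p = 1.84e-07), and was at -0.52 without the libraries that stood out. By line the mean log2 difference was -0.33 in FGFR1, -0.31 in wild-type FGFR2, -0.76 in M538I, -0.38 in N550K and -0.68 in K660N, beside -0.21 in GFP and 0.27 in parental cells. In the control lines together CYCS ran over 118.1 to 185.1 CPM (median 140.7) with FIIN-3, against 90.8 to 194.1 CPM (median 159.5) without it, at -0.02 (adjusted p = 0.932).

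Of complex I 12 of 37 tested members were lower and 4 higher (32.4% and 10.8%, beside the 27.9% and 30.3% of all genes). NDUFS8 ran over 111.2 to 382.6 CPM (median 177.1) with FIIN-3, against 193.3 to 303.3 CPM (median 254.8) without it, and was lower, at -0.46 ± 0.07 (adjusted p = 7.03e-09). NDUFS1 ran over 51.1 to 132.9 CPM (median 109.7) with FIIN-3, against 114.96 to 170.2 CPM (median 135.8) without it, and was lower, at -0.33 ± 0.06 (adjusted p = 3.68e-07). Both pairs of groups overlapped. NDUFB9 and NDUFS6 were lower, at -0.38 ± 0.07 and -0.38 ± 0.07. NDUFA5, NDUFV1, NDUFA1 and NDUFA10 were higher, by 0.34 ± 0.08, 0.28 ± 0.04, 0.26 ± 0.07 and 0.22 ± 0.05. NDUFV1 ran over 234.01 to 409.5 CPM (median 263.99) with FIIN-3, against 172.6 to 266.2 CPM (median 223.04) without it, an overlap of the groups in spite of an adjusted p of 1.9e-07 by edgeR.

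In complex II SDHB was lower, at -0.26 ± 0.06 (adjusted p = 9.19e-05), while SDHA and SDHD were higher by 0.14 ± 0.04 and 0.23 ± 0.10. In complex III UQCRH, which helps cytochrome c1 meet cytochrome c, was lower, at -0.23 ± 0.06 and UQCRB higher by 0.15 ± 0.07. In complex IV COX8A and COX6B1 were lower, at -0.25 ± 0.07 and -0.18 ± 0.07, and COX5B and COX7A2L higher by 0.16 ± 0.07 and 0.20 ± 0.06. In ATP synthase ATP5E, ATP5G3, ATP5A1 and ATP5B were lower, at -0.22 ± 0.08, -0.20 ± 0.06, -0.19 ± 0.05 and -0.14 ± 0.04, and ATP5G2 higher by 0.27 ± 0.06. COX5B and UQCRB were not called without the libraries that stood out, at 0.08 and 0.08. COX4I1, CYC1 and UQCRC2 were not called, at -0.05 (adjusted p = 0.501), -0.09 (adjusted p = 0.207) and 0.01 (adjusted p = 0.795), though without those libraries COX4I1 and CYC1 were, at -0.13 ± 0.04 (adjusted p = 0.00569) and -0.14 ± 0.05 (adjusted p = 0.0125). Both of those calls came only after leaving out libraries picked by the members' own level.

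The mitochondrial ribosome and glycolysis lists, like the nuclear subunits, had more genes lower than higher, and the mtDNA-encoded subunits and the cytosolic ribosome more higher than lower. All 13 mRNAs of mitochondrial DNA were higher with FIIN-3 in receptor lines (median 0.56), and 12 without the libraries that stood out (median 0.46). In control lines 8 of 13 were higher (median 0.23). Glycolysis genes were lower for 17 of 20 tested and higher for 3 in receptor lines, with the lactate transporter SLC16A3 at -1.91, PFKP at -1.13 and the glucose transporter SLC2A1 at -1.09. The cytosolic ribosome list was higher for 43 of 81 and lower for 3, and the mitochondrial ribosome list was lower for 27 of 77 and higher for 12. Over all genes tested 30.3% were called higher and 27.9% lower in receptor lines, and 4.95% and 4.86% in control lines. MYC was higher by 1.34 and PPRC1 lower, at -0.59.

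The FIIN-3 contrast and the trametinib contrast of set 2 use different libraries. Of the 21 members lower with FIIN-3 added, 15 were higher under trametinib than under FIIN-3 (71.4% of the 21 and 41.7% of the 36), among them CYCS, NDUFS8, NDUFS6, SDHB, ATP5E and ATP5G3. Of the 10 higher with FIIN-3 added, 6 were lower under trametinib than under FIIN-3 (60% of each list of 10), namely ATP5G2, NDUFA1, NDUFA10, NDUFA5, NDUFV1 and SDHD. Over all genes tested the same overlaps were 64.4% and 61.6% of the called genes, and 66.4% and 65.5%, so the members' shares lie around those of all genes. No member was called in the same direction in both, as were 4.26% and 4.42% (higher) and 8.95% and 8.13% (lower) of all genes called.

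**Figure D4:**
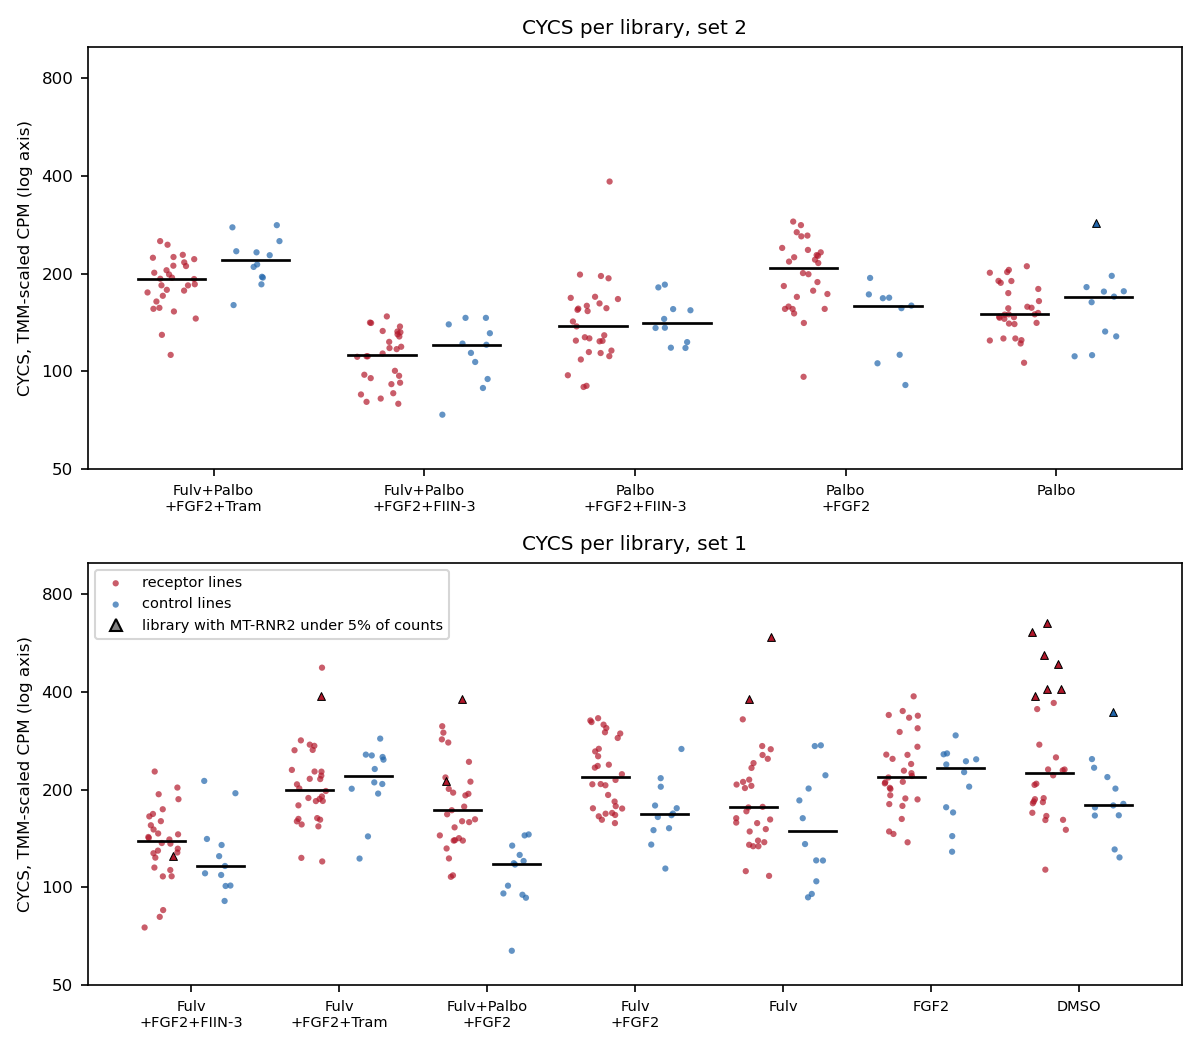
CYCS in CPM (log axis) in every receptor-line and control-line library of the treatments compared, with set 2 above and set 1 below; receptor lines are red, control lines blue, bars are medians and triangles are libraries with MT-RNR2 under 5% of counts. In set 2 receptor lines the medians are 208.3 CPM with palbociclib plus FGF2, 137.7 with FIIN-3 added, and 192.7 and 112.4 under trametinib and under FIIN-3 on fulvestrant, palbociclib and FGF2.

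FGF2 added to palbociclib gave a small mixed change in receptor lines (28 FGF2 and 30 palbociclib libraries). 9 of 80 members were higher and 18 lower, where 23% and 25.7% of 10873 genes were called, and without the libraries that stood out (27 and 27) 12 were higher and 10 lower, where 24.4% and 25.4% were. The direction of the median changed with those libraries, at -0.05 with them and 0.01 without. They were picked by the level of these same members. With palbociclib they were a high FGFR1, a high M538I and a low N550K library, and with FGF2 added a low M538I library. The shift of the median and of the counts is thus in part set by that choice. CYCS ran over 96.2 to 289.6 CPM (median 208.3) with FGF2, against 106.3 to 210.9 CPM (median 149.9) without it, and was higher by 0.36 ± 0.06 (adjusted p = 3.03e-06) with overlapping groups. NDUFS8, NDUFS1, NDUFB9 and SDHB were higher by 0.20 ± 0.05, 0.20 ± 0.05, 0.19 ± 0.07 and 0.18 ± 0.06. SDHA ran over 241.7 to 294.8 CPM (median 269.9) with FGF2, against 250.8 to 424.97 CPM (median 316.1) without it, and was lower, at -0.25 ± 0.04 (adjusted p = 4.58e-08), also with overlapping groups. NDUFA10, ATP5G2, UQCR10 and NDUFS3 were lower, at -0.29 ± 0.05, -0.27 ± 0.06, -0.25 ± 0.07 and -0.22 ± 0.05. Of the mtDNA-encoded subunits 12 of 13 were lower (median -0.39), and of the glycolysis genes 16 of 20 were higher and 3 lower. In control lines (9 and 11 libraries) 0 members were called in either direction by edgeR, where 0.801% and 0.317% of 10734 genes were called higher and lower; 3 members had an unadjusted p under 0.05 and DESeq2 called 0. The median there was -0.69, and -0.07 without the 1 parental palbociclib library apart. The FGF2 and FIIN-3 contrasts share the palbociclib plus FGF2 libraries, so their values are not independent.

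In set 1 FIIN-3 was added to fulvestrant plus FGF2. CYCS, NDUFS8, SDHB and CYC1 were lower and NDUFA5 higher in receptor lines with all libraries, without the 1 library apart, with the title-number range as a term, and with both. NDUFA1 was higher in 3 of these fits and was not called with the range term alone. How many other members were called in each direction depended on the libraries and the title range. In receptor lines (30 libraries each) 39 of 81 members were called higher and 6 lower, where 33.4% and 31.1% of 12520 genes were. The 39 did not hold under the fit without the library apart and with the title-number range (the second fit below), in which 15 were higher and 21 lower, where 34% and 28.4% of genes were called, and the median went to -0.04 beside 0.28 with all libraries. CYCS was lower under both. It ran over 75.2 to 227.6 CPM (median 138.7) with FIIN-3, against 157.8 to 332.3 CPM (median 218.8) without it, and was lower, at -0.67 ± 0.09 (adjusted p = 5.78e-10) with all libraries and -0.67 ± 0.08 (adjusted p = 3.36e-11) under the second fit. Within ranges of title numbers the CYCS difference was -0.62 in the first and -0.82 in the fourth, with 10 libraries per arm each.

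The other members that kept a call in the same direction under both fits included NDUFS8, SDHB, NDUFA9 and CYC1 on the lower side and NDUFA5, NDUFA1, SDHD, NDUFV1 and ATP5G2 on the higher side. NDUFS8 ran over 128.6 to 521.5 CPM (median 264.4) with FIIN-3, against 243.2 to 554.8 CPM (median 320.5) without it, and was lower, at -0.31 ± 0.09 (adjusted p = 0.00334) and, in the second fit, -0.48 ± 0.08 (adjusted p = 9.26e-07). SDHB was lower, at -0.24 and -0.39, NDUFA9 at -0.17 and -0.34, and CYC1 at -0.36 and -0.23. NDUFA5 ran over 33.9 to 99.2 CPM (median 58.8) with FIIN-3, against 23.7 to 59.6 CPM (median 39.7) without it, and was higher by 0.61 ± 0.09 (adjusted p = 1.37e-08) and 0.67 ± 0.09 (adjusted p = 7.97e-09); within ranges its difference was 0.99 and 0.19. The small subunits with the largest rise over all libraries were smaller in the second fit: UQCR10 was at 0.66 and 0.10 (adjusted p = 0.223), NDUFB3 at 0.66 and 0.19, and COX6C at 0.65 and 0.28. All 13 mtDNA-encoded subunits were higher in both fits (medians 0.86 and 0.75), and 16 of 21 glycolysis genes were lower (medians -0.52 and -0.46).

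Sets 1 and 2 are separate libraries, so the FIIN-3 calls can be set side by side. Of the 15 members higher in set 1 under the second fit and the 10 higher in set 2, 9 were shared (60% and 90%): ATP5G2, COX5B, COX7A2L, NDUFA1, NDUFA10, NDUFA5, NDUFV1, SDHD and UQCRB. Of the 21 lower in each, 13 were shared (61.9% of each): CYCS, NDUFS8, NDUFS6, NDUFB8, NDUFB9, NDUFA6, NDUFA9, NDUFV3, SDHB, UQCRH, COX8A, ATP5B and ATP5G3. With all libraries of set 1 the same 9 higher members were shared (23.1% of the 39), 5 of the 6 lower ones were (83.3%, and 23.8% of the 21), and COX6B1 was higher in set 1 and lower in set 2. Over all genes tested, the shares under the second fit were 61.3% and 79.4% of the genes called higher and 61.4% and 72.1% of those called lower, so the members' shares lie on both sides of those of all genes. The background drug differs between the sets, fulvestrant in set 1 and palbociclib in set 2. In the control lines of set 1 (11 and 12 libraries) 7 of the members were higher and 2 lower, where 11.3% and 14.3% of genes were called, but with the title-number range as a term 1 was higher and 7 lower, where 11% and 13.4% were. CYCS ran over 90.8 to 212.9 CPM (median 116.3) with FIIN-3, against 114.3 to 267.1 CPM (median 167.9) without it, and was lower, at -0.44 ± 0.13 (adjusted p = 0.0113). That call did not hold within ranges or with the range as a term: the CYCS difference was -0.01 in the first range (3 and 4 libraries) and -0.74 in the fourth (4 each), and -0.35 (adjusted p = 0.0926) with the term. The difference between receptor and control lines, tested as an interaction, called 0 members in either direction by edgeR, where 6.13% and 4.51% of genes were called higher and lower; 5 had an unadjusted p under 0.05 and DESeq2 called 0.

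Palbociclib added to fulvestrant plus FGF2 went with higher levels of members in the receptor lines, in a number that depended on the fit. In receptor lines (29 palbociclib and 30 other libraries) 47 of 81 were higher and 2 lower, where 22% and 21.5% of 12476 genes were called. Without the libraries apart and with the range term, 40 were higher and 3 lower, where 21% of genes were called in each direction, with a median of 0.18; without the libraries apart alone 26 were higher and 2 lower, where 22.7% and 22.3% were. With the range term alone 8 were higher and 3 lower, where 17.5% and 19.2% were, and DESeq2 called 32 in all. NDUFB3 (complex I), UQCR11 (complex III), COX6C (complex IV) and ATP5J2 (ATP synthase) were higher by 0.76 ± 0.17, 0.66 ± 0.19, 0.57 ± 0.16 and 0.64 ± 0.20 with all libraries and by 0.43, 0.39, 0.37 and 0.34 in the second fit. NDUFB3 ran over 75.8 to 216.2 CPM (median 110.7) with palbociclib, against 42.1 to 120.4 CPM (median 88.02) without it when the libraries apart are left out, with overlapping groups. The carriers at the middle of the chain went the other way. CYC1 ran over 111.6 to 436.03 CPM (median 259.98) with palbociclib, against 164.9 to 615.95 CPM (median 328.6) without it, and was lower, at -0.50 ± 0.12 (adjusted p = 0.000841). CYCS was lower, at -0.30 ± 0.10 (adjusted p = 0.0104), but its difference was -0.77 within the second range and 0.02 within the fourth, with 10 libraries per arm each, so it did not hold within both ranges. The members' median difference was 0.17 and 0.23 within those ranges. In control lines (12 each) 1 member was higher and 3 lower, where 13.4% and 13.9% of genes were called. COX7B2 was higher by 0.75 ± 0.22 (adjusted p = 0.0115), and CYCS, CYC1 and COX5A were lower, at -0.63 ± 0.12 (adjusted p = 0.000149), -0.75 ± 0.21 (adjusted p = 0.00737) and -0.26 ± 0.09 (adjusted p = 0.0257). The CYC1 difference there was 0.03 within the second range and -0.60 within the fourth, with 4 libraries per arm each, and that of CYCS was -1.13 and -0.31.

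Trametinib on fulvestrant plus FGF2 changed few members. In receptor lines 5 were higher and 1 lower of 81, where 19.3% and 17.2% of 12505 genes were called, and 8 were higher and 7 lower in the second fit, where 18.5% and 17.2% were. The 5 were NDUFA11, NDUFB2, COX5B, UQCRQ and UQCR11. The 1 lower member was CYC1 at -0.50 ± 0.11 (adjusted p = 0.000107), but its difference was -0.59 within the second range and 0.11 within the fourth (10 libraries per arm each), and in the second fit it was not called, at -0.20 (adjusted p = 0.0598). In the same comparison CYCS was at -0.06 (adjusted p = 0.689). In control lines 5 were higher, led by NDUFV3 at 0.40 ± 0.08 (adjusted p = 0.000389), and 3 lower, led by CYC1 at -0.60 ± 0.20 (adjusted p = 0.0238), where 13.1% and 15.3% of genes were called. That CYC1 difference was -0.45 within the second range and 0.09 within the fourth (4 libraries per arm each), and -0.16 (adjusted p = 0.517) with the range term, so it did not hold within both ranges either. The comparisons with FIIN-3, palbociclib and trametinib, and that of FGF2 on fulvestrant below, all share the fulvestrant plus FGF2 libraries.

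FGF2 and fulvestrant against DMSO share the DMSO libraries, 7 of which stood apart in the receptor lines. With FGF2 most members were lower in receptor lines, by much less once those libraries were left out, and NDUFS1 was higher with all libraries and without those. With FGF2 in receptor lines (30 FGF2 and 28 DMSO libraries) 74 of 81 members were lower and 1 higher, where 31.1% and 28.6% of 12665 genes were called, with a median of -1.15. Without the 7 DMSO libraries apart 46 were lower and 1 higher, where 23.2% and 23.9% were, with a median of -0.24. In the second fit 45 were lower and 2 higher, where 24.4% and 24.3% were. Values in that fit were -0.48 (adjusted p = 5.57e-08) for ATP5G2, -0.47 (adjusted p = 9.79e-06) for NDUFA1 and -0.38 (adjusted p = 3.15e-05) for COX5B. The 2 higher members were CYCS at 0.28 ± 0.08 (adjusted p = 0.0049) and NDUFS1 at 0.20 ± 0.08 (adjusted p = 0.0358). CYCS without the libraries apart ran over 137.7 to 388.1 CPM (median 219.3) with FGF2, against 113.4 to 370.3 CPM (median 188.4) with DMSO, with overlapping groups. The call of CYCS rested on the range term, since with all libraries its value was -0.28 (adjusted p = 0.0782) and without the libraries apart alone its adjusted p was 0.223 (edgeR). NDUFS1 was not called with the range term alone, at 0.20 (adjusted p = 0.111). The mtDNA-encoded subunits were lower for 13 of 13 with all libraries and 11 in the second fit, and the cytosolic ribosome list for 79 and 66 of 81. In control lines 0 members were called (3.8% of genes higher and 2.56% lower); 46 had an unadjusted p under 0.05, DESeq2 called 0 higher and 1 lower, and the second fit called 2 higher and 2 lower, where 7.91% and 5.92% of genes were. The interaction of FGF2 with line class called 0 members by edgeR, where 1.64% of genes were higher and 1.84% lower, with 5 members at an unadjusted p under 0.05. DESeq2 called 0 higher and 1 lower, and the second fit 0 higher and 5 lower, where 5.86% and 6.52% of genes were called.

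Fulvestrant went with slightly lower values of many members in receptor lines. With fulvestrant (30 and 28 libraries) 33 members were lower and 0 higher, where 9.54% and 4.39% of 12767 genes were called. Without the libraries apart (28 and 21) 9 were lower, where 4.93% of genes were called lower and 2.84% higher, and with the range term added 56 were, where 13.5% and 10.8% were, with a median of -0.19. In that fit ATP5G1 was at -0.39 (adjusted p = 1.33e-07), ATP5I at -0.38 (adjusted p = 2.06e-06), ATP5E at -0.35 (adjusted p = 2.96e-06), NDUFS6 at -0.33 (adjusted p = 5.54e-06) and CYCS at -0.30 (adjusted p = 0.00212). The members' median difference was -0.27 within the first range (5 lines, 10 fulvestrant and 9 DMSO libraries). It was -0.09 within the second (5 lines, 10 libraries per arm). The third range gave -0.21, but from 1 line with 2 libraries per arm. In the same fit 80 of 81 cytosolic ribosome genes and 56 of 78 mitochondrial ribosome genes were lower. In control lines 0 members were called (0.454% of genes higher and 1.08% lower); 45 had an unadjusted p under 0.05 and DESeq2 called 0. The interaction of fulvestrant with line class called 0 members by edgeR, where 0.00719% of genes were higher and 0% lower, with 1 member at an unadjusted p under 0.05 and 0 called by DESeq2.

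FGF2 added to fulvestrant in receptor lines (30 each) called 60 members lower and 1 higher with all libraries, where 25.6% and 24% of 12664 genes were, but 13 lower and 6 higher in the second fit, where 24.7% and 24.5% were. The 6 were CYCS at 0.56 ± 0.08 (adjusted p = 3.33e-08), SDHB at 0.30 ± 0.07 (adjusted p = 0.000139), NDUFB9, NDUFS8, NDUFA9 and UQCRFS1. CYCS without the libraries apart ran over 157.8 to 332.3 CPM (median 218.8) with FGF2, against 108.5 to 329.6 CPM (median 173.96) without it, and its difference was 0.41 and 0.73 within the first and the second range. ATP5G2, NDUFA10, NDUFV1 and NDUFA1 were lower in the second fit, at -0.28, -0.26, -0.25 and -0.24. In control lines 1 member was lower (NDUFA3) and 0 higher, where 5.06% and 7.34% of genes were called.

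**Figure D5:**
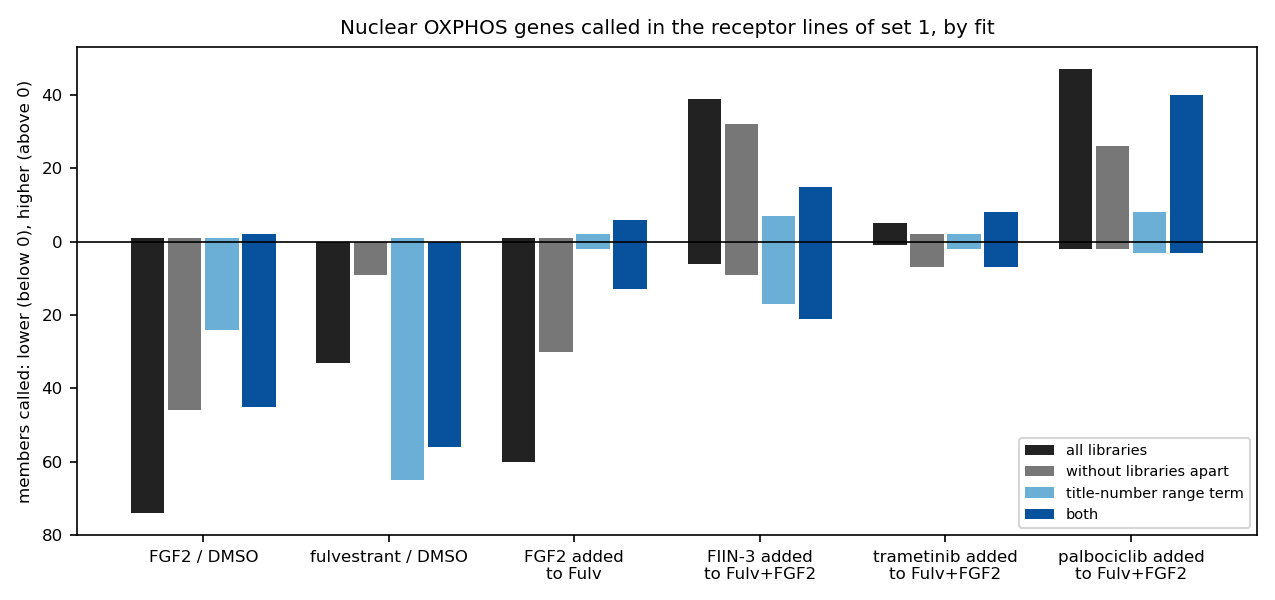
Number of members called higher or lower in receptor lines of set 1, for each treatment contrast, with all libraries, without the libraries apart, with the title-number range term, and with both. FGF2 over DMSO changes to 45 lower and 2 higher with both, against 74 lower and 1 higher with all libraries.

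Lines were also compared at DMSO with GFP. N550K and K660N (6 libraries against 6) had 0 members called by edgeR. For N550K 0.954% of genes were higher and 0.644% lower, 3 members had an unadjusted p under 0.05 and DESeq2 called 1 higher and 0 lower. For K660N 0.923% were higher and 0.591% lower, 44 members had an unadjusted p under 0.05 and DESeq2 called 0. Without the GFP library apart that number was 0. In the FGF3 line (5 libraries against 6) NDUFA5 and NDUFB5 were lower and 0 members higher, where 3.94% and 3.24% of genes were called. NDUFA5 had 19.2, 13.2, 28.99, 31.4 and 28.03 CPM in the FGF3 line, against 53.1 to 101.7 CPM (median 55.9) in GFP, and was lower, at -1.35 ± 0.28 (adjusted p = 0.0101). NDUFB5 had 95.99, 137.7, 188.4, 161.9 and 151.1 CPM in the FGF3 line, against 206.9 to 393.1 CPM (median 282.8) in GFP, and was lower, at -0.91 ± 0.26 (adjusted p = 0.0454). Neither pair of groups overlapped. Leaving out each library in turn, NDUFA5 kept its call in 11 of 11 fits and NDUFB5 in 2 (adjusted p from 0.0054 to 0.108 by edgeR). Without the GFP library apart 14 members were higher and 9 lower, where 10.7% and 9.08% of genes were called. CYCS was then lower, at -0.57 ± 0.17 (adjusted p = 0.0236), NDUFA5 was at -1.10 ± 0.21 (adjusted p = 0.000948) and NDUFB5 at -0.73 ± 0.17 (adjusted p = 0.0054). Basal keratinocyte markers moved with this line: KRT5, KRT14, KRT17 and TP63 summed to 33.01 to 135.2 CPM in the FGF3 line, against 0.959 to 2.51 CPM in GFP, with KRT14 at 0 in 3 of the 5 and in 3 of the 6 libraries. Their part in the result was not tested.

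In the FGF3 line of set 1, FIIN-3 on fulvestrant (6 libraries against 4) had 3 members higher and 1 lower, where 5.34% and 7.79% of genes were called. CYCS ran over 58.9 to 110.97 CPM (median 63.8) with FIIN-3, against 86.8, 117.6, 113.02 and 100.8 CPM with fulvestrant, and was lower, at -0.54 ± 0.17 (adjusted p = 0.037) with overlapping groups. COX7C, a small complex IV subunit, ran over 435.6 to 556.1 CPM (median 471.5) with FIIN-3, against 357.7, 386.9, 382.2 and 390.1 CPM with fulvestrant, and was higher by 0.39 ± 0.11 (adjusted p = 0.0244) without overlap. UQCRB and NDUFB2 were higher by 0.48 ± 0.15 (adjusted p = 0.0357) and 0.54 ± 0.17 (adjusted p = 0.0422). Leaving out 1 library at a time gave 1 to 5 called members, and of the 10 fits CYCS was called in 3, COX7C in 6, NDUFB2 in 5 and UQCRB in 4, all with unchanged signs. With a block for the title-number pairs, which deviated together here, 6 members were higher and 4 lower, where 8.6% and 11.3% of genes were called. CYCS was then at -0.56 (adjusted p = 0.00272) and COX7C at 0.37 (adjusted p = 0.00254). The mtDNA-encoded subunits were higher for 12 of 13. The 4 basal markers summed to 3.03 to 260.7 CPM with FIIN-3, against 94.3 to 422.9 CPM with fulvestrant, and their part in the result was not tested. Trametinib and palbociclib on fulvestrant in this line (6 against 4 each) called 0 members by edgeR. For trametinib 2.99% of genes were higher and 4.44% lower, 12 members had an unadjusted p under 0.05 and DESeq2 called 1 higher and 0 lower. With the title-number range as a term trametinib had 5 members higher (UQCRB, COX7A2, NDUFA8, ATP5E and NDUFA4) and 2 lower (NDUFB10 and SDHA), where 6.03% and 7.05% of genes were called. For palbociclib 1.47% and 5.56% were called, with 7 members at an unadjusted p under 0.05 and 0 by DESeq2.

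In set 2 the FGF3 line under FIIN-3 (5 libraries) had 0 members called against its control group (6 libraries), where 2.49% and 4.23% of genes were higher and lower; 18 members had an unadjusted p under 0.05 and DESeq2 called 0 higher and 4 lower. CYCS had 130.6, 108.1, 154.3, 143.7 and 129.8 CPM under FIIN-3, against 145.5 to 244.4 CPM (median 176.1) in the control group, at -0.46 (adjusted p = 0.146). Without the control library apart 12 members were lower and 0 higher, where 9.8% and 7.98% of genes were called, and CYCS was lower, at -0.39 ± 0.13 (adjusted p = 0.0373). Palbociclib (6 against 6) called 0 members by edgeR, where 1.73% of genes were higher and 4.8% lower; 3 had an unadjusted p under 0.05, DESeq2 called 0, and without the library apart 1 was higher and 0 lower, where 6.33% and 8.24% of genes were called.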

How the data were processed

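Gene counts of 647 libraries were used as deposited, and every line of the table names a gene. STAR and the hg19 build are named in the submitters' processing notes, and the sources used here do not name the counting tool, the annotation or any version. The deposited log2(TPM + 1) values of 12 GFP and parental DMSO libraries gave the TPM levels, and the other 635 such columns were not used. No count column was left unused and no 2 libraries were identical. The members, the gene lists and the tests were chosen with earlier results of these data known.

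Counts were tested in each set separately with edgeR 4.0.16 in R 4.3.3: genes kept by filterByExpr (minimum count 10), TMM factors, a quasi-likelihood fit on the groups of the comparison with a term for line where lines were pooled, and Benjamini-Hochberg adjustment over all genes tested, with a threshold of 0.05. Fold changes are log2 and the standard error is the log2 fold change over the square root of F. CPM used TMM library sizes, and log2 CPM a prior count of 2. A member was named if it was a landmark subunit (NDUFB8, NDUFS1, SDHA, SDHB, UQCRC2, CYC1, CYCS, COX4I1, COX5B, ATP5A1, ATP5B), a tissue isoform (COX4I2, NDUFA4L2, COX6A2, COX6B2, COX7A1), or among the 6 largest called changes per direction with a mean log2 CPM of at least 3; other lists gave up to 3 per direction. Members outside that rule (among them COX7A2, COX5A, UQCRFS1, UQCRH, COX6B1, COX7A2L, ATP5G1, SDHD) were named after their values were seen.

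Of the 89 members 81 passed the filter in set 1 and 79 or 80 in set 2. Not tested in either set were NDUFA4L2, COX4I2, COX6A2, COX6B2, COX7A1, COX8C, ATP5J2LP and ATP5L2, nor UQCRHL in set 2 and COX7B2 in the trametinib comparison of the control lines there. Alternatives were DESeq2 1.42.0, its size factors, no filter, a block for title-number pairs, a term for the range of 96 title numbers, leaving out libraries with MT-RNR2 under 5% of counts or each library in turn, and, added after seeing the data, the last 2 sources together and leaving out libraries that stood out in their group in set 2. The libraries that stood out were picked by the mean level of these same members, so that alternative is not independent of the values tested. Same-numbered libraries deviated together (every pair's correlation over 0.1) in 2 comparisons of the FGF3 line, at 0.52, 0.31 and 0.32 for FIIN-3 on fulvestrant and at 0.15, 0.46 and 0.36 for palbociclib in set 2; in the palbociclib comparison the block changed no call. The fitting code was tested on simulated data. Tables and figures were made with Python 3.11.15, pandas 2.3.3, numpy 2.4.6, scipy 1.17.1 and matplotlib 3.10.9. Promoter windows came from RefSeq (GRCh38.p14), and no count was placed on that build. PCR copies without molecular identifiers are not independent molecules, and depth per library sets the precision of low genes.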

Additional observations from a re-analysis of the deposited data

Results flagged for a closer look

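The mean level of the members (mean log2 CPM) was compared among the libraries of each group, and in 20 groups 1 library was far from the others by its gap to the nearest library over the group's range. Chance gives about 1 in 20 groups. Of the 20, 7 were libraries with MT-RNR2 under 5% of counts: K660N with fulvestrant, FGF2 and FIIN-3 (replicate 1, 8.99, nearest 7.48), K660N with fulvestrant, FGF2 and trametinib (replicate 3, 9.06, nearest 7.11), K660N with fulvestrant, palbociclib and FGF2 (replicate 4, 9.24, nearest 7.52), N550K with fulvestrant (replicate 3, 9.13, nearest 7.23), wild-type FGFR2 with fulvestrant (replicate 3, 9.41, nearest 7.72), GFP with DMSO (replicate 6, 9.35, nearest 7.76) and parental with palbociclib in set 2 (replicate 4, 9.71, nearest 7.31).

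The other 13 did not have MT-RNR2 under 5%. In set 2 the high libraries were FGF3 with fulvestrant, palbociclib and FIIN-3 (replicate 6, 7.71, nearest 7.12), FGFR1 with FIIN-3 (replicate 5, 8.06, nearest 7.38), FGFR1 with palbociclib, FGF2 and FIIN-3 (replicate 5, 8.21, nearest 7.25), FGFR1 with palbociclib (replicate 3, 7.58, nearest 7.22), K660N with FIIN-3 (replicate 5, 7.6, nearest 7.21), K660N with fulvestrant, palbociclib, FGF2 and FIIN-3 (replicate 6, 7.29, nearest 7.02) and M538I with palbociclib (replicate 4, 7.91, nearest 7.16). Low libraries in set 2 were M538I with palbociclib and FGF2 (replicate 1, 6.96, nearest 7.19) and N550K with palbociclib (replicate 2, 7.01, nearest 7.25). In set 1 they were N550K with FGF2 (replicate 6, 7.86, nearest 7.29), GFP with fulvestrant (replicate 5, 8.11, nearest 7.48), parental with DMSO (replicate 1, 8.1, nearest 7.66) and, on the low side, wild-type FGFR2 with fulvestrant, FGF2 and FIIN-3 (replicate 6, 7.05, nearest 7.34). No explanation for these libraries was tested.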

How the results depend on the processing

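Counts below are members called in either direction, and the cause of each move was not tested except where fewer libraries or genes were fitted. With DESeq2 the count was 1 for N550K against GFP at DMSO and 7 for FGF3 against GFP (0 and 2 by edgeR), 1 for FGF2 over DMSO in control lines and 1 for its interaction with line class (0 and 0), 51 for fulvestrant in receptor lines (33), 28, 3 and 32 for FIIN-3, trametinib and palbociclib on fulvestrant plus FGF2 in receptor lines (45, 6 and 49), 1 for trametinib in the FGF3 line of set 1 (0), 5 for FIIN-3 on palbociclib plus FGF2 in control lines (3) and 4 for FIIN-3 in the FGF3 line of set 2 (0). With DESeq2's size factors FGF3 against GFP gave 1. With no filter on low counts the count was 38 for K660N and 37 for FGF3 against GFP at DMSO, 36 for FGF2 and 31 for fulvestrant over DMSO in control lines (0 and 0), all of them lower, where 1.8%, 3.65%, 1.9% and 1.57% of all genes were called lower. It was 0 for FGF2 on fulvestrant in control lines (1), 5 for the FIIN-3 interaction (0), 13 for trametinib on fulvestrant plus FGF2 in receptor lines, 1 for trametinib in the FGF3 line of set 1, 48 for FGF2 on palbociclib in control lines (0; 47 lower, where 1.37% of genes were), and 7 and 4 for FIIN-3 and palbociclib in the FGF3 line of set 2 (0 and 0).

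Without the libraries apart it was 2 for N550K and 23 for FGF3 against GFP, 1 for FGF2 in control and 47 in receptor lines (75), 9 for fulvestrant in receptor lines, 31 for FGF2 on fulvestrant in receptor lines (61), 28 for palbociclib in receptor lines, and 12 and 1 for FIIN-3 and palbociclib in the FGF3 line of set 2. With the title-number range as a term it was 2 for FGF2 in control and 25 in receptor lines, 3 for its interaction, 66 for fulvestrant, 4 for FGF2 on fulvestrant, 24 for FIIN-3 and 11 for palbociclib, all in receptor lines, 14 for trametinib in control lines (8), and 10 and 7 for FIIN-3 and trametinib in the FGF3 line of set 1 (4 and 0). With both it was 4 for FGF2 in control and 47 in receptor lines, 5 for its interaction, 56 for fulvestrant, 19 for FGF2 on fulvestrant and 15 for trametinib in receptor lines. SDHB with FGF2 over DMSO in receptor lines changed sign, at -0.55 with all libraries, 0.02 without the libraries apart and 0.09 with the range term, alone or combined; with FGF2 on fulvestrant COX4I1 was at 0.04 and 0.03 and NDUFB8 at 0.14 and 0.13 with the range term alone and with both. Leaving out each library gave 1 to 23 for FGF3 against GFP, 0 to 12 and 0 to 1 for FIIN-3 and palbociclib in the FGF3 line of set 2, and 1 to 5, 0 to 2 and 0 to 1 for FIIN-3, trametinib and palbociclib in that line in set 1. Without the libraries that stood out, FIIN-3 on palbociclib plus FGF2 in receptor lines gave 48 (31).

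The block of title-number pairs gave 1 for N550K against GFP, 2 for the FGF2 interaction, 66 for fulvestrant in receptor lines, 2 for FGF2 on fulvestrant in control lines, and 10 and 7 for FIIN-3 and trametinib in the FGF3 line of set 1. Outside the 2 comparisons named under the processing, not every correlation of same-numbered libraries was over 0.1, and they ran from -0.81 to 0.95. In fulvestrant over DMSO the 5 receptor lines had 0.04 to 0.84, 0.34 to 0.87 and 0.19 to 0.95 for the 3 pairs. The labels do not say whether the numbers mark real pairs, and these correlations do not settle it. Called values of named members were no longer called in 18 cases with DESeq2, 2 with its size factors, 5 with the block, 20 with no filter, 3 without the libraries that stood out, 31 (31 kept) when each library was left out, 50 (39 kept) with the range term, 18 (51 kept) without the libraries apart and 13 (52 kept) with both. Low genes and the groups of 4 to 6 libraries limit what could be called.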
